A study of Mus musculus with 8 samples.

Results

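Glycolysis splits glucose into pyruvate in the cytosol, and lactate dehydrogenase can then turn pyruvate into lactate so that the pathway keeps running without oxygen. Hypoxia-inducible factor (HIF) is a pair of an oxygen-labile alpha subunit, HIF1A or EPAS1, and the stable partner ARNT. When oxygen is present, prolyl hydroxylases of the Egln family mark the alpha subunit, VHL binds it and it is degraded. When oxygen is short, HIF binds DNA and induces glucose transporters, nearly all glycolytic enzymes, PDK1, VEGFA and BNIP3. Mouse haematopoietic stem cells lie in marrow regions of low oxygen, and their reliance on glycolysis has been tied to HIF1A and MEIS1. Jmjd6 encodes an oxygenase that uses 2-oxoglutarate, as the Egln enzymes do.

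The genes described here are 34 named members of this system, found by their symbols in a deposited table of 26146 genes. They comprise 23 genes of glucose and lactate transport, the glycolytic enzymes, lactate dehydrogenase and their regulators, and 11 other genes of the hypoxia response. The latter are 7 hypoxia-induced genes, the HIF subunits Hif1a, Epas1 and Arnt, and Vhl. All 34 had a row, and 33 passed the filter on low counts and were tested. Epas1 did not pass it.

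PolyA RNA was sequenced from sorted Lin-Sca1+Kit+ (LSK) cells of 8 mice, 1 library per mouse. This sort of bone marrow is rich in blood stem cells and multipotent progenitors. The 4 KO mice carried a floxed Jmjd6 removed in haematopoietic lineages by a Cre whose driver the labels do not name. The other 4 mice are labelled wild type, and whether they carried the floxed allele or the Cre is not stated, nor are age and strain. As sorted cells were lysed in bulk, fewer cells of a type and less RNA per cell cannot be told apart.

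Total counts ran from 9344779 to 15079960 per library. Jmjd6 itself stood at 52.5 to 63.7 CPM (counts scaled to the TMM-adjusted size of the library) in wild type and 27.5 to 30.7 CPM in KO, so the groups did not overlap. By the quasi-likelihood test of edgeR the log2 fold change was -1.03 with an adjusted p of 0.0381. With single libraries left out that adjusted p ran from 0.0401 to 0.254, and the call held only without KO replicate 3. Jmjd6 in KO thus kept 0.49 of its wild type level, and where the remaining reads come from was not tested. Jmjd6 shares 172 exon bases with the oppositely oriented Mettl23. An adjusted p of 0.05 was passed by 8 of the 13439 genes under test, or 0.0595%. Cd34, Kit and Flt3, which define or mark LSK cells, were abundant in all libraries (at least 414 CPM each). Ly6a, which encodes the Sca1 of the sort, stood at 86.1 to 227 CPM, and the T cell marker Cd3e stayed at or below 0.0631 CPM. Wild type replicate 4 and KO replicate 3 had 0 counts of 4 Y-linked genes, where each of the other libraries had at least 3660, so these are 1 library of each genotype. Wild type replicate 1 carried 8 granulocyte markers at a summed 5224 CPM and 7 erythroid markers at 656.7 CPM, where no other library exceeded 2375 and 157.5 CPM. KO replicate 3 was the highest library in 24.5% and the lowest in 27.7% of all tested genes.

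LSK cells expressed a complete glycolytic chain in which 1 isozyme dominated most steps, hexokinase excepted. To compare genes, CPM was divided by the length of the main transcript in kilobases. On this scale Ldha, whose product makes lactate from pyruvate, was the most abundant member, at 504 CPM per kb in wild type. Mif, a cytokine gene that hypoxia induces, followed at 447 CPM per kb. Pkm, which encodes pyruvate kinase, stood at 386 CPM per kb, Aldoa (aldolase) at 346 and Tpi1 (triose phosphate isomerase) at 316 CPM per kb. Eno1 (enolase), Gapdh and Gpi1 came next at 242, 207 and 169 CPM per kb. Pgk1 (phosphoglycerate kinase) stood at 119 and Pfkl, the liver-type phosphofructokinase, at 72.1 CPM per kb. Pgam1 (phosphoglycerate mutase) stood at 69.3 and Hk1, a hexokinase, at 40.2 CPM per kb. Each value is for a single gene and not for a whole step, to which other isozymes also contribute. Hk3, a hexokinase gene that is not among the members, was close to Hk1, at 34.6 CPM per kb in wild type and 27.7 in KO. The transporter members were lower still, Slc2a3 (GLUT3) at 24.7, Slc2a1 (GLUT1) at 15.5 and the lactate exporter Slc16a3 (MCT4) at 1.94 CPM per kb. Slc16a1 (MCT1), a lactate transporter that is not among the members, stood above these, at 27.2 CPM per kb in wild type. The rank of Gapdh is uncertain, because 166 annotated pseudogenes align to its transcript at 90% identity or more over at least 300 bases. Fewer such pseudogenes align to other members: 13 to Ldha, 8 to Pkm and 5 each to Aldoa, Eno1 and Mif. The sources used here do not say how reads with several matches were counted, which limits all these ranks.

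**Figure D1:**
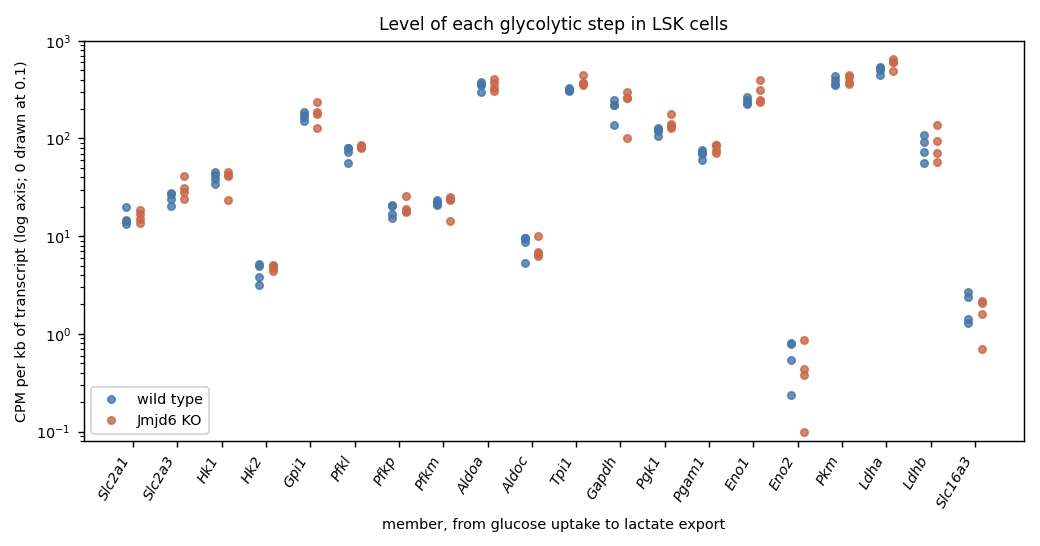
Level of 20 members in order from glucose uptake to lactate export, in CPM per kb of transcript on a log axis, with 1 point per library (4 wild type, 4 Jmjd6 KO) and a library with 0 counts drawn at 0.1. Ldha and Pkm have the highest and Eno2 and Slc16a3 the lowest means in both genotypes.

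The shares of isozymes, computed from levels per kb, overlapped between the genotypes. Hk2, the inducible hexokinase, supplied 9.7% ± 2.25 of the summed Hk1 and Hk2 level per kb in wild type and 11.8% ± 3.84 in KO (SD, n = 4). Hk3 is not part of this share. Ldhb, the subunit that favours lactate oxidation, supplied 14.1% ± 4.24 of the lactate dehydrogenase level in wild type and 13.4% ± 5.9 in KO. Its share was 19.4% and 21.9% in wild type replicate 4 and KO replicate 3, the libraries without Y-linked counts, and 8.55% to 15.3% in the other 6. Aldoc, the brain-type aldolase, supplied 2.31% ± 0.388 beside Aldoa in wild type and 2.06% ± 0.249 in KO. Eno2, the neuronal enolase, supplied 0.246% ± 0.116 beside Eno1 in wild type and 0.154% ± 0.115 in KO. Slc2a3 exceeded Slc2a1, at 61.4% ± 4.07 of the pair in wild type and 65.6% ± 7.64 in KO. Of Hif1a and Epas1, Hif1a made up nearly all: Epas1 supplied 0.247% ± 0.0945 of the pair in wild type and 0.586% ± 0.357 in KO, from 2 to 12 counts per library.

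None of the 33 tested members differed between Jmjd6 KO and wild type at an adjusted p of 0.05 by edgeR, whether among the 23 transport and glycolysis genes or the 10 others. The smallest adjusted p was 0.811, that of Tpi1. At an unadjusted p under 0.05 the count was also 0 of 33, where 6.06% of all tested genes reached it. DESeq2 and limma voom called 0 members as well, where they called 0.492% and 0.231% of all genes. At an unadjusted p under 0.05, DESeq2 had 1 of 33 members (Tpi1) and 6.82% of all genes, and limma voom had 4 of 33 (Tpi1, Ldha, Pdk1 and Ndrg1) and 9.96% of all genes. The log2 fold change lay above 0 in 16 of 23 transport and glycolysis genes, with a median of 0.13, whereas 49.6% of all tested genes lay above 0 with a median of 0.00. In the 10 other tested genes 5 lay above 0 and the median was -0.01. The glycolysis median rested on few libraries: it was 0.01 without KO replicate 4, 0.05 without wild type replicate 4 and 0.08 without wild type replicate 2. Across 13187 tested genes the log2 fold change was lower for longer transcripts (Spearman rho -0.33, a description across genes, which are not replicates), and removing that trend with expression level left a glycolysis median of 0.03.

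Every KO library lay above every wild type library in 4 members, Tpi1, Pfkl, Pgk1 and Mif, and the reverse held for 0 members. Over all tested genes, 4.19% were separated, 2.08% with KO higher and 2.11% with KO lower. The gaps between the groups were narrow in 2 of the 4: 0.1 CPM for Pgk1 and 2.7 CPM for Pfkl. They were 14.7 CPM for Mif and 49.9 CPM for Tpi1.

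**Figure D2:**
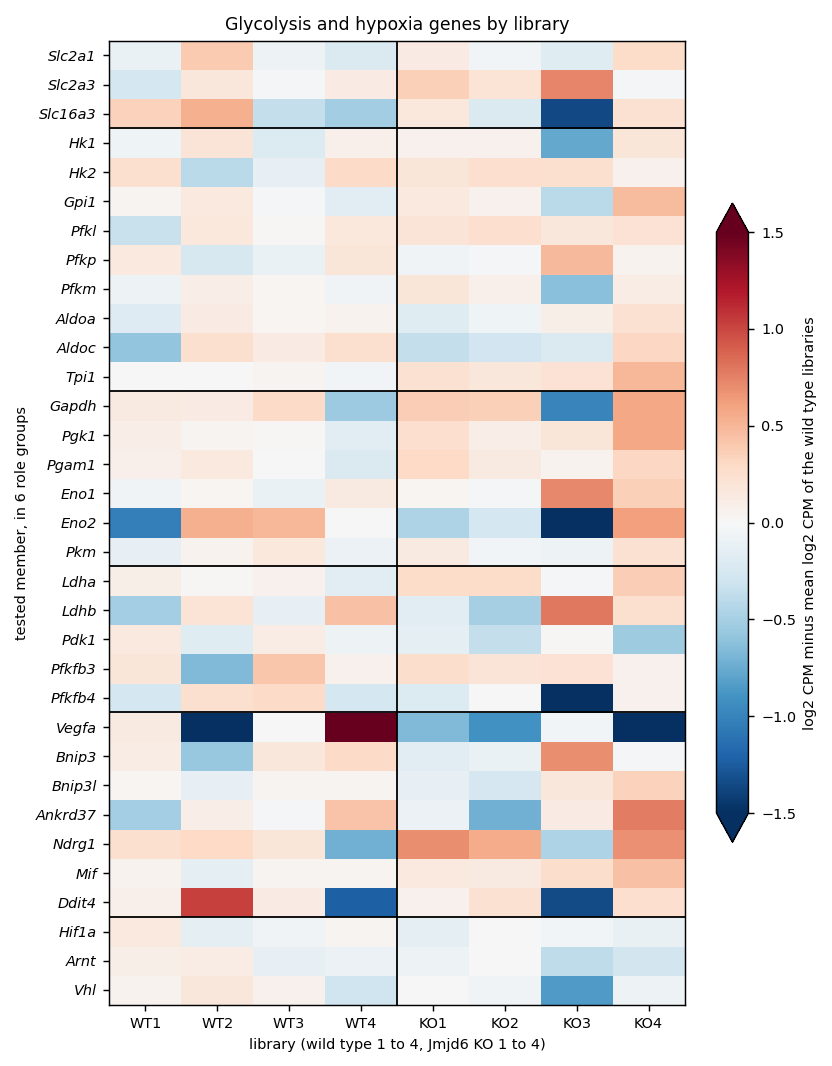
Difference of each library's log2 CPM from the mean of the 4 wild type libraries, for the 33 tested members (rows, in 6 role groups) and 8 libraries (columns). Colour runs from -1.5 to 1.5. KO replicate 4 is the highest library in 13 of 33 members, against 16.4% of all tested genes. KO replicate 3 is the lowest in 10 of 33, against 27.7% of all tested genes.

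The promoters of Pgk1, Ldha, Bnip3 and Mif are shown. Pgk1 is a separated enzyme gene, Ldha the most abundant member and Bnip3 a mitophagy gene that HIF is known to induce. Mif is a separated gene with no match in the 250 bases searched. The stretches are the bases before the RefSeq start (GRCm38.p6, the build that mm10 names), 5′ to 3′ on the gene's strand. Bases after the start were not searched. The Bnip3 stretch ends 14 bases before the start, because the 13 bases after it lie in an annotated exon and were left off. Capitals mark the core of the HIF response element, searched as ACGTG or GCGTG on both strands, so that a CACGTG holds 2 overlapping matches, 1 on each strand.
Pgk1 (chrX:106186850-106187099, plus strand): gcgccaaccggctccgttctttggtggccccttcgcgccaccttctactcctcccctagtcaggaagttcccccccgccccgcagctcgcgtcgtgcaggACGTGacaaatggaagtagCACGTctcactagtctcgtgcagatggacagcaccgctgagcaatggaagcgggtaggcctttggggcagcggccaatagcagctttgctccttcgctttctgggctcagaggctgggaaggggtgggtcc
Ldha (chr7:46845554-46845803, plus strand): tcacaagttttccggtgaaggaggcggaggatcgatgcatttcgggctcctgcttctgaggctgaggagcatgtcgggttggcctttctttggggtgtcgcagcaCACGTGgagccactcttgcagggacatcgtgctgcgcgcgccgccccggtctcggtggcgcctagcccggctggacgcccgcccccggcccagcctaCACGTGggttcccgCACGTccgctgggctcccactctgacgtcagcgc
Bnip3 (chr7:138909520-138909756, minus strand): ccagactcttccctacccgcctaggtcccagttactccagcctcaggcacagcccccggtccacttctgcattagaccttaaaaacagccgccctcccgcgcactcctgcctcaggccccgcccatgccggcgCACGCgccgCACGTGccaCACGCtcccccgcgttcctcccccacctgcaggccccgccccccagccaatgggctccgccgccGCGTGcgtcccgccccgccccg
Mif (chr10:75860278-75860527, minus strand): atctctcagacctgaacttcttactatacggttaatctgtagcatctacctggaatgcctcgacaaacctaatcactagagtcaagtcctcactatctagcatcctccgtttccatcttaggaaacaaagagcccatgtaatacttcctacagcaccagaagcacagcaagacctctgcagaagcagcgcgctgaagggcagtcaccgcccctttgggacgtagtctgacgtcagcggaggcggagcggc
Pgk1 held 2 matches, beginning 150 and 131 bases before the start, Ldha and Bnip3 held 5 each and Mif held 0. RefSeq windows were found for 30 of the 34 members, and not for Slc2a3, Bnip3l, Ndrg1 or Epas1. A match lay in 25 of these 30 genes (83.3%), against 60.6% of tested genes with a window. By window of 250 bases it lay in 33 of 44 (75.0%), against 38.6% of all RefSeq windows and 54.9% of windows of tested genes. Some windows of Eno1, Aldoa and Pfkm overlap and hold the same match, which then counts in each. Members had 44 windows over 30 genes and tested genes 13043 over 10303, and neither share was adjusted for this. The median GC content was 60.4% in the members' windows and 59.2% in those of tested genes. Of the 4 separated genes, Pgk1 and Pfkl held a match in this window and Tpi1 and Mif did not. A match is a string of letters and no evidence of binding.

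Of the transporters, Slc2a3 had the largest value. It stood at 80.6, 109, 94.8 and 106 CPM in wild type replicates 1 to 4 and at 124, 111, 162 and 95.4 CPM in KO replicates 1 to 4. All KO libraries but replicate 4 lay above the wild type range, and the log2 fold change was 0.33 (95% interval from -0.06 to 0.73, adjusted p = 0.832 by edgeR). Without KO replicate 3, its highest library, the value was 0.17. Slc2a1 stood at 46.6, 65.4, 47.4 and 43.1 CPM in wild type and at 54.4, 48.5, 44.0 and 60.6 CPM in KO, and the groups overlapped fully (log2 fold change 0.03, 95% interval from -0.36 to 0.43). Slc16a3 was scarce, at 10.3, 11.6, 6.23 and 5.55 CPM in wild type and 8.97, 6.89, 3.05 and 9.45 CPM in KO. Its log2 fold change of -0.25 had an interval from -1.07 to 0.58, so these libraries fixed neither its direction nor its size.

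In the upper part of the pathway Tpi1 had the smallest p of all 33 members. Tpi1 (chromosome 6, 124810586 to 124814296, minus strand, mm10) interconverts the pair of triose phosphates that aldolase makes. It stood at 504, 509, 522 and 494 CPM in wild type and at 593, 572, 589 and 720 CPM in KO, with replicate 4 the highest. The mean went from 507 ± 11.7 to 618 ± 68 CPM (SD, n = 4). The log2 fold change by edgeR was 0.29 with an SE of 0.132, an unadjusted p of 0.0512 and an adjusted p of 0.811. Tpi1 shares 34 exon bases with Spsb2 on the other strand. With the length trend removed the difference was 0.11.

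Pfkl, the main phosphofructokinase of these cells, stood at 211, 297, 270 and 297 CPM in wild type and 305, 317, 300 and 309 CPM in KO. The KO libraries lay close together just above the wild type maximum, and the log2 fold change was 0.20 (95% interval from -0.12 to 0.51, adjusted p = 0.833 by edgeR). Hk1, which binds mitochondria, stood at 147, 176, 133 and 162 CPM in wild type and 160, 161, 90.3 and 175 CPM in KO. KO replicate 3 was the only library under the wild type range, and the log2 fold change was -0.08 with all libraries and 0.10 without that one. Hk2 stood at 27.3, 17.4, 21.2 and 28.3 CPM in wild type and 26.1, 27.7, 27.2 and 24.1 CPM in KO, so the KO libraries lay within the wild type range (log2 fold change 0.16, adjusted p = 0.888 by edgeR).

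Aldoa, which splits fructose bisphosphate, stood at 454, 566, 530 and 541 CPM in wild type and 459, 500, 552 and 608 CPM in KO, and its log2 fold change was 0.02 (95% interval from -0.29 to 0.33). Aldoc stood at 14.8, 26.5, 24.4 and 26.5 CPM in wild type and 17.4, 18.3, 19.2 and 27.8 CPM in KO, with overlapping groups and a log2 fold change of -0.16. Gpi1, the isomerase between hexokinase and phosphofructokinase, gave 0.10, and its KO libraries ranged from 367 to 676 CPM in replicates 3 and 4 around a wild type range of 431 to 538 CPM. Pfkp and Pfkm, the platelet and muscle types of phosphofructokinase, gave 0.13 and -0.03. Pfkp shares 748 exon bases with the oppositely oriented Pitrm1, so its reads may not have been told apart.

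In the lower part, which yields ATP, Pgk1 came next by p. Pgk1 (chromosome X, 106187100 to 106203699, plus strand, mm10) encodes the phosphoglycerate kinase that makes the first ATP of the pathway. It stood at 232, 223, 219 and 194 CPM in wild type and 258, 232, 247 and 323 CPM in KO. KO replicate 4 stood apart and KO replicate 2 all but met wild type replicate 1, and the log2 fold change was 0.29 (95% interval from -0.03 to 0.61, adjusted p = 0.826 by edgeR). Without KO replicate 4 it was 0.18. Eno1 stood at 471, 498, 456 and 535 CPM in wild type and 501, 478, 806 and 628 CPM in KO, with KO replicates 3 and 4 above the wild type range (log2 fold change 0.30, 95% interval from -0.09 to 0.69). Without KO replicate 3 it was 0.13.

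Pgam1, a phosphoglycerate mutase, stood at 129, 136, 122 and 106 CPM in wild type and 151, 135, 127 and 152 CPM in KO, and its log2 fold change was 0.20. Eno2 was near the detection limit, at 6, 34, 22 and 24 counts in wild type and 12, 12, 0 and 31 counts in KO. Gapdh, the glyceraldehyde phosphate dehydrogenase often taken as a constant reference, was not constant here: it ran from 196 to 351 CPM in wild type and from 144 to 427 CPM in KO. Its lowest libraries were wild type replicate 4 and KO replicate 3, and the log2 fold change was 0.16 with all libraries, 0.41 without KO replicate 3 and 0.01 without wild type replicate 4. Pkm, by contrast, varied by a CV of 9.26% over the 8 libraries, and its log2 fold change was 0.06 (95% interval from -0.24 to 0.37).

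At the exit of glycolysis Ldha stood at 941, 896, 927 and 794 CPM in wild type and 1070, 1070, 873 and 1150 CPM in KO. Of the KO libraries only replicate 3 lay within the wild type range, and the log2 fold change was 0.23 (95% interval from -0.08 to 0.53, adjusted p = 0.832 by edgeR). Ldhb stood at 73.3, 120, 95.5 and 141 CPM in wild type and 93.5, 74.0, 181 and 123 CPM in KO, and its log2 fold change went from 0.13 to -0.15 when KO replicate 3 was left out. Pdk1, the kinase that keeps pyruvate from becoming acetyl-CoA by inhibiting pyruvate dehydrogenase, lay the other way from Ldha. It stood at 193, 154, 189 and 166 CPM in wild type and 159, 136, 177 and 120 CPM in KO (log2 fold change -0.24, 95% interval from -0.58 to 0.10, adjusted p = 0.832 by edgeR).

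Pfkfb3 and Pfkfb4 encode enzymes that set the phosphofructokinase activator fructose 2,6-bisphosphate. Pfkfb4 stood at 17.2, 24.5, 25.1 and 17.1 CPM in wild type and 17.9, 20.7, 2.67 and 21.6 CPM in KO. Its log2 fold change of -0.42 came from KO replicate 3 and was -0.06 without it. Pfkfb3 gave 0.13, with KO libraries at 26.7 to 30.7 CPM inside a wild type range of 16.1 to 34.2 CPM.

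**Figure D3:**
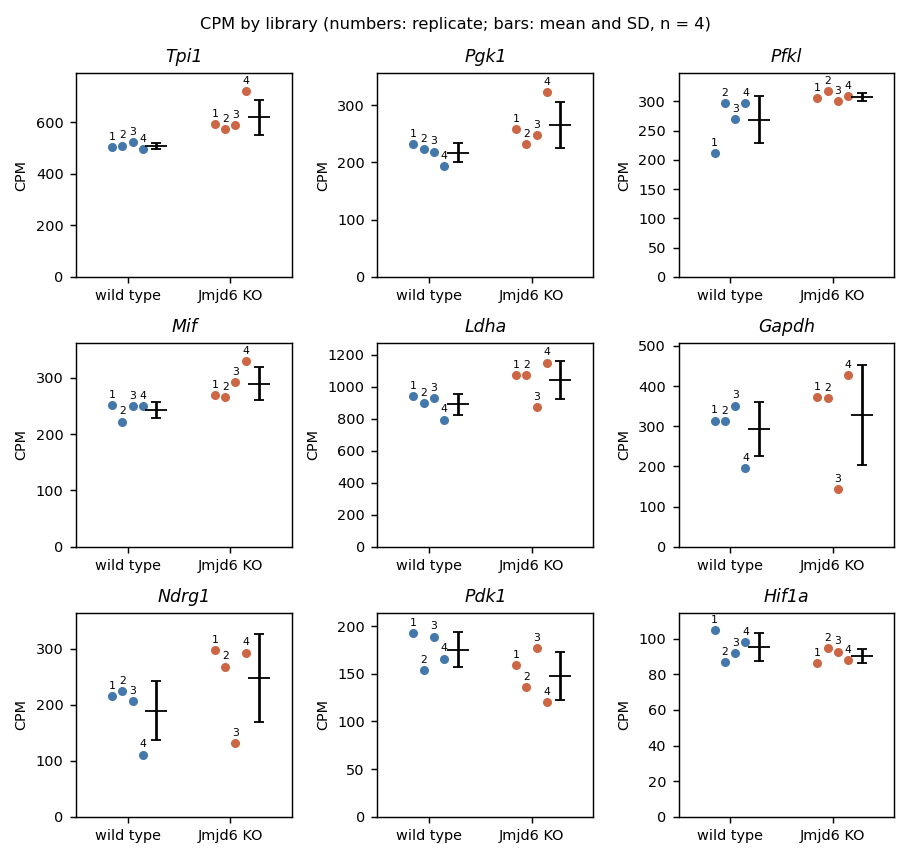
CPM of 9 members in each library (points, numbered by replicate) with the mean and SD of 4 libraries per genotype (bars), on axes that begin at 0. Tpi1, Pgk1, Pfkl and Mif have all KO points above all wild type points, Gapdh and Ndrg1 are low in wild type replicate 4 and KO replicate 3, and Hif1a is level.

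Among the other hypoxia-induced genes Mif had the smallest p. It stood at 251, 222, 249 and 250 CPM in wild type and 269, 266, 292 and 329 CPM in KO, all above the wild type libraries. The log2 fold change by edgeR was 0.25 with an adjusted p of 0.832. Mif has the shortest main transcript of the 34 members, 544 bases, and with the length trend removed its value was -0.05. Its transcript aligns along 508 bases with that of the antisense gene C230062I16Rik, which had 3.9% as many counts. Vegfa, which encodes the growth factor of blood vessels, was close to absent, at 15, 4, 15 and 89 counts in wild type and 10, 7, 19 and 3 in KO. Its log2 fold change of -1.46 (adjusted p = 0.832 by edgeR) was -0.43 without wild type replicate 4, which alone held more than 20 counts.

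Ndrg1, a stress-response gene that hypoxia induces strongly in many cell types, had the largest positive log2 fold change of the tested members, 0.39 (95% interval from -0.21 to 0.99, adjusted p = 0.833 by edgeR). It stood at 215, 224, 206 and 111 CPM in wild type and 297, 268, 132 and 293 CPM in KO. Wild type replicate 4 and KO replicate 3 were far below the others, and in each genotype the remaining 3 libraries lay close together. Ndrg1 gave 0.20 without wild type replicate 4, and 0.41 where both libraries that lack Y-linked counts were left out (adjusted p = 0.702 by edgeR).

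Bnip3 and Bnip3l (NIX), receptors that target mitochondria for autophagy, gave 0.11 and 0.05. Bnip3 was highest in KO replicate 3 at 80.2 CPM, the remaining libraries lying between 33.4 and 60.3 CPM, and its value was -0.13 without that library. Bnip3l ranged from 136 to 206 CPM in KO around 150 to 168 CPM in wild type. Ankrd37, a compact HIF target, and Ddit4 (REDD1), an inhibitor of mTORC1, were scarce, at 2.26 to 6.66 CPM and 2.67 to 14.4 CPM over all libraries, and gave 0.08 and -0.29 with intervals from -0.75 to 0.90 and from -1.31 to 0.73.

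The 3 tested genes of the HIF pathway itself all lay below 0 and none passed the test. Hif1a stood at 105, 86.7, 92.1 and 98.0 CPM in wild type and 86.5, 94.6, 92.8 and 88.1 CPM in KO. It had the lowest CV of the 34 members, 6.79%, and a log2 fold change of -0.08 with a 95% interval from -0.36 to 0.21. Arnt stood at 53.8, 54.7, 46.5 and 47.4 CPM in wild type and 47.8, 50.2, 38.6 and 41.6 CPM in KO (log2 fold change -0.18, 95% interval from -0.53 to 0.16). Vhl stood at 61.4, 66.5, 61.9 and 47.8 CPM in wild type and 59.4, 56.8, 32.6 and 55.8 CPM in KO. Its log2 fold change was -0.22 with all libraries and -0.05 without KO replicate 3. Epas1 had 3, 5, 3 and 2 counts in wild type and 6, 12, 6 and 4 in KO, too few for the test. HIF activity is set mainly by the stability of the alpha subunit protein, which these data do not measure.

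Leaving out KO replicate 3, the library that stood apart over all genes, changed the count at an unadjusted p under 0.05 from 0 to 7 of 33. Over all genes 7.09% reached that level in the same fit, and 3.25% did so with KO higher. Tpi1, Pgk1, Ldha, Gapdh and Ndrg1 were higher in KO, with log2 fold changes of 0.31, 0.32, 0.30, 0.41 and 0.60, and Pdk1 and Vegfa lower, with -0.34 and -1.91. All 7 stayed at an adjusted p of 0.605 or more by edgeR, and 0 members were called, where 0.059% of all genes were. Wild type replicate 4, which like KO replicate 3 lacks Y-linked counts, stayed in this fit. With wild type replicate 4 left out instead, Gapdh, Ldha and Ndrg1 gave 0.01, 0.18 and 0.20. Among the other fits without a single library, the count was 1 without wild type replicate 2 (all genes 5.45%), 2 without KO replicate 2 (6.9%) and 1 without KO replicate 4 (4.63%). It was 0 without wild type replicates 1, 3 or 4 or KO replicate 1, where 5.99%, 3.97%, 5.2% and 7.53% of all genes reached that level. With both libraries that lack Y-linked counts left out it was 2 of 32, Ndrg1 and Pdk1, where 5.71% of all genes did, and 18 of 23 transport and glycolysis genes lay above 0, where 49.9% of all genes did. The libraries without Y-linked counts were the lowest pair in 9 of 33 members, Gapdh, Ldha, Ndrg1, Vhl, Gpi1, Slc2a1, Slc16a3, Pfkfb4 and Ddit4, against 10.7% of all tested genes, and the highest pair in 3, Pfkp, Ldhb and Bnip3, against 7.68%. These counts describe 1 library of each genotype, and what else sets those libraries apart was not tested.

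**Figure D4:**
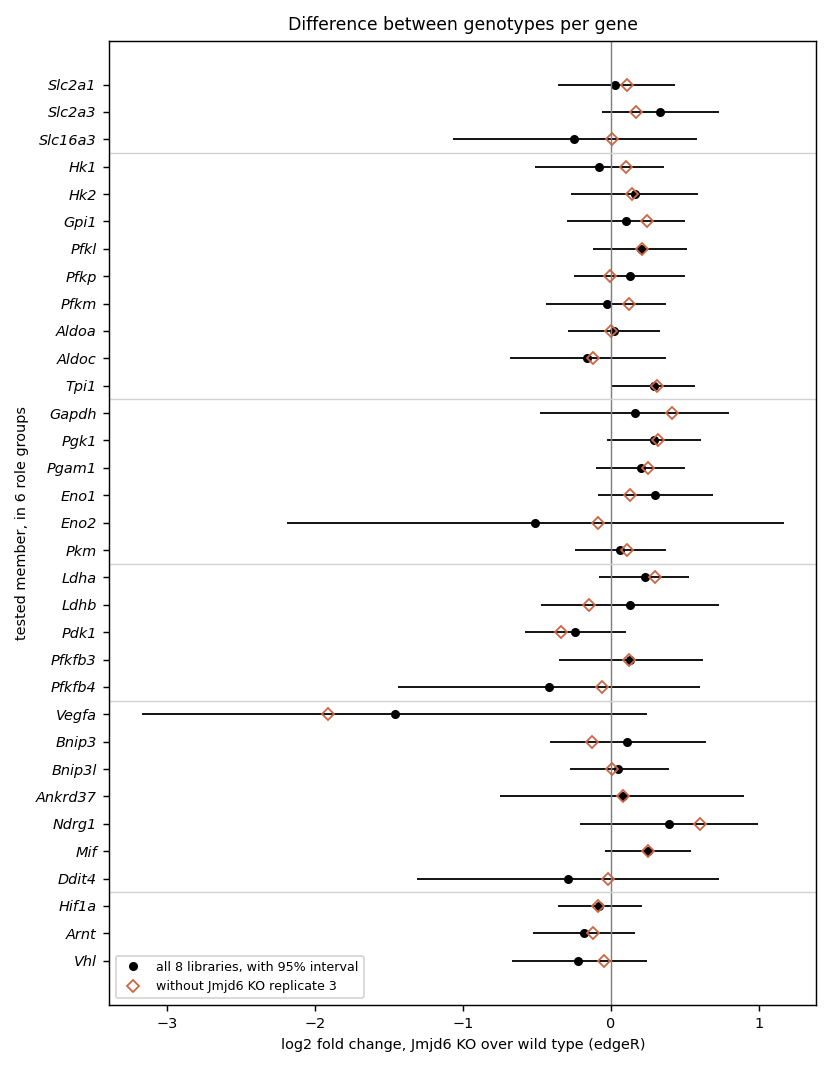
Log2 fold change of Jmjd6 KO over wild type by edgeR for the 33 tested members, with 95% intervals for all 8 libraries (black) and the value without KO replicate 3 (open diamonds). No member passes the adjusted test; Vegfa and Eno2, the scarcest tested members, have the widest intervals.

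KO replicate 4 stood high. It was the highest library in 13 of 33 members and in 10 of the 23 transport and glycolysis genes, against 16.4% of all tested genes. Summed over these 23 genes the wild type level was 5337 to 5801 CPM. KO replicates 1 to 3 had 6113, 5874 and 5771 CPM and KO replicate 4 had 6920 CPM. The groups overlapped only through wild type replicate 2 and KO replicate 3. Summed granulocyte markers ran from 1547 to 2375 CPM in KO and from 979 to 5224 CPM in wild type, erythroid markers from 83.11 to 148.3 and from 75.75 to 656.7 CPM, and macrophage markers from 149.4 to 256 and from 132.7 to 233.4 CPM. Lymphocyte markers, mainly Ighm and Nkg7, ran from 602.8 to 955 CPM in KO and from 503.5 to 616.5 CPM in wild type. Nkg7 had separated groups, at 259 to 374 CPM in KO and 125 to 232 CPM in wild type. Its log2 fold change was 0.84 (adjusted p = 0.392 by edgeR). The granulocyte marker Camp was separated too (1.28, adjusted p = 0.741 by edgeR). These were 1 of 5 tested lymphocyte and 1 of 7 tested granulocyte markers, where 2.08% of all tested genes were separated with KO higher. All 7 tested erythroid markers lay below 0. Of the granulocyte markers 3 lay above 0 and 4 below. Of the 8 macrophage markers only Vsig4 had separated groups, at 3.18 to 11.4 CPM in KO and 0.2 to 1.2 in wild type. The log2 fold change lay above 0 in 6 of the 8 macrophage markers and below 0 in Csf1r (-0.41) and Adgre1 (-0.1). The part of these markers in the glycolysis values was not tested. Without wild type replicate 1, the library richest in granulocyte and erythroid markers, the glycolysis median was 0.11. The 8 endothelial and stromal markers summed to 26.75 to 36.76 CPM in KO and 19.88 to 54.86 CPM in wild type, mostly from Emcn at 12.6 to 40.9 CPM, while Cdh5 and Kdr stayed at or below 1.32 CPM. Of the 8 LSK markers none was called by edgeR. Among them Hlf, a stem cell transcription factor gene, had separated groups, at 178 to 276 CPM in wild type and 118 to 161 CPM in KO (log2 fold change -0.65, adjusted p = 0.489 by edgeR). Mecom, another stem cell gene, gave -0.58 with overlapping groups (adjusted p = 0.811 by edgeR). At an unadjusted p under 0.05 by edgeR these were 2 of the 8 LSK markers, both lower in KO, where 3.28% of all tested genes were lower. Kit, Cd34 and Flt3 gave -0.03, -0.04 and -0.03, Gata2 -0.21, Ptprc 0.06 and Ly6a 0.37, all with overlapping groups. The part of the LSK markers in the members' values was likewise not tested.

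Beyond the members, 84 of 99 genes in 5 related lists were tested, and 0 passed an adjusted p of 0.05 by edgeR. At an unadjusted p under 0.05 there were 4 higher and 2 lower, where 2.78% and 3.28% of all tested genes were. In further hypoxia-induced genes, 27 tested with a median of -0.09, Angptl4 had the smallest p. Angptl4, a secreted inhibitor of lipoprotein lipase that hypoxia and fatty acids induce, stood at 25.0, 20.9, 21.1 and 26.5 CPM in wild type and 39.9, 39.6, 46.4 and 44.1 CPM in KO. The groups were far apart. By edgeR the log2 fold change was 0.86 and missed the threshold (adjusted p = 0.173), and DESeq2 and limma voom called it, at adjusted p of 0.000572 and 0.0438. Over the edgeR fits without a single library its log2 fold change ran from 0.81 to 0.93 and its adjusted p from 0.19 to 0.609. Car12, a carbonic anhydrase, gave 1.07 (adjusted p = 0.811 by edgeR) and 0.55 without KO replicate 3, and Zfp395 gave -0.43.

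In other glycolysis and pyruvate genes, 31 tested with a median of 0.05, Ldhd, which oxidises D-lactate, went from 11.7 ± 2.54 to 21 ± 4.87 CPM, with groups separated narrowly by KO replicate 3 at 14.9 and wild type replicate 2 at 14.7 CPM (log2 fold change 0.84, adjusted p = 0.553 by edgeR). It shares 2246 exon bases with the oppositely oriented Znrf1, so these reads may not all be its own. Slc2a8 (GLUT8) and Pgm2, a phosphoglucomutase, were separated the other way, at -0.66 and -0.36 (adjusted p = 0.783 and 0.792 by edgeR). The 8 genes of the pentose phosphate pathway, which branches off to make NADPH and ribose, had a median of 0.03, and Pgd, G6pdx and Rpia gave -0.23, -0.13 and -0.25.

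Of the partners that sense oxygen, 12 tested with a median of -0.02, Egln3, a prolyl hydroxylase that is itself induced by HIF, stood at 29.6, 29.9, 26.4 and 21.8 CPM in wild type and 29.0, 31.9, 44.5 and 43.5 CPM in KO. KO replicates 3 and 4 were above all others, and the log2 fold change was 0.47 (adjusted p = 0.792 by edgeR). Rbx1 and Elob, subunits of the VHL ubiquitin ligase, gave 0.34 and 0.30 and were likewise highest in KO replicates 3 and 4. Of 6 reported upstream regulators, with a median of -0.16, Myc, which induces glycolytic genes, gave 0.34, Mycn -0.52 and Meis1 -0.24, with adjusted p of 0.832 or more by edgeR.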

How the data were processed

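Reads were aligned with HISAT2 to mm10, per the submitters' processing notes; which counter, annotation and strand setting were used is not given in these sources. The authors deposited raw counts per gene symbol, 1 column per mouse, matched here by genotype and replicate number. No column was left unused.

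Counts were tested with the quasi-likelihood test of edgeR 4.0.16 (R 4.3.3) over all 8 libraries, KO against wild type with no covariate, TMM scaling and filterByExpr at a min.count of 10 and min.total.count of 15, leaving 13439 of 26146 genes. P-values were adjusted by Benjamini-Hochberg over all tested genes and called under 0.05. Log2 CPM used a prior count of 2. The common biological coefficient of variation was 27.8%. Replicates differed by more than sampling noise, at a chi-square of 6.561 to 86.89 per degree of freedom. The code was tested on simulated counts. Whether the mice of a group were littermates is not stated, so p-values measure the spread between these mice.

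Positions and main transcripts (the longest APPRIS principal one) came from GENCODE M21 and promoters from RefSeq GRCm38.p6, both of the build that mm10 names. Transcripts resembling members were found with blastn.

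The members, lists and tests were chosen with earlier results of these data known. All members are named. Values per library are given for the 3 with the smallest p in each role group, separated members, isozyme pairs and HIF genes. Of related lists the 3 genes with the smallest p are named, and Hk3 and Slc16a1 for their levels. Alternatives were DESeq2 1.42.0, limma 3.58.1 voom with sample weights, other scalings and filters, a replicate block, single libraries left out, the 6 libraries with Y-linked counts, and removal of a loess trend on transcript length and expression.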

Additional observations from a re-analysis of the deposited data

Results flagged for a closer look

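Dixon's test at 95% was applied to 68 groups of 4 libraries (34 members in 2 genotypes). In 10 of them it flagged a library far from the other 3 of its genotype. The nominal rate is about 1 group in 20, but all groups come from the same 8 libraries. The share flagged over all tested genes was not computed, so the count shows no excess particular to the members. KO replicate 3 was the flagged library for 5 genes. It was low for Pfkm at 41.1 CPM (others 67.1 to 72.2), for Ndrg1 at 132 CPM (others 268 to 297) and for Vhl at 32.6 CPM (others 55.8 to 59.4), and high for Pfkp at 106 CPM (others 73 to 78.3) and for Bnip3 at 80.2 CPM (others 44 to 48.9). Wild type replicate 4 was low for Ndrg1 at 111 CPM (others 206 to 224) and for Epas1 at 0.126 CPM (others 0.301 to 0.333), the latter from 2 counts. Wild type replicate 2 was low for Bnip3l at 150 CPM (others 166 to 168) and for Mif at 222 CPM (others 249 to 251). KO replicate 4 was high for Tpi1 at 720 CPM (others 572 to 593).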

How the results depend on the processing

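Members called stayed at 0 under all alternatives with a test, which removal of the length trend has not. The count of all called genes was 8 and became 66 by DESeq2, 31 by limma voom, 3 with the replicate block, 4 in the 6 libraries with Y-linked counts and 2 to 8 with single libraries left out. Related-list genes called were 0, and 1, Angptl4, by DESeq2 (0.86) and by limma voom (0.82). Jmjd6 lost its call with the replicate block (-1.02, adjusted p = 0.402 by edgeR) and in the 6 libraries (-1.02, 0.105), and ran from -1.06 to -0.99 with single libraries left out. The other hypoxia median ran from -0.11 to 0.05. Same-numbered libraries did not deviate together (correlations 0.032, -0.012, -0.184 and -0.192), so the numbers show no pairing; no KO library matched best with its own number.

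Signs turned only in genes that were not called. With library size only, which shifts the median of all genes to -0.054, Slc2a1 gave -0.02 and Aldoa -0.04. By limma voom Slc16a3 gave 0.04, Hk1 0.11, Pfkm 0.09, Aldoa -0.07, Ldhb -0.21, Bnip3 -0.15, Bnip3l -0.15, Ankrd37 -0.33, Ddit4 0.14 and Rpia 0.12. In the 6 libraries Hk1 gave 0.12, Pfkm 0.10 and Bnip3 -0.04. With the length trend removed Aldoa gave -0.16, Gapdh -0.02, Pkm -0.06, Ldhb -0.03, Ankrd37 -0.02 and Mif -0.05. With single libraries left out Slc2a1 ran from -0.05 to 0.18, Slc16a3 from -0.42 to 0.01, Hk1 from -0.17 to 0.10, Gpi1 from -0.05 to 0.24, Pfkp from -0.01 to 0.20, Pfkm from -0.10 to 0.12, Aldoa from -0.05 to 0.10, Ldhb from -0.15 to 0.32, Pfkfb3 from -0.05 to 0.28, Bnip3 from -0.13 to 0.23, Bnip3l from -0.06 to 0.16, Ankrd37 from -0.24 to 0.30, Ddit4 from -0.57 to 0.16 and Rpia from -0.44 to 0.28. The cause was not tested. Depth limits Eno2, Vegfa and Epas1, each with under 20 counts in several libraries.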
